A study of Mus musculus with 10 samples.

Results

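The regions described here are the topologically associating domains (TADs) and the significant chromatin interactions listed on mouse chromosomes 11 and 19. They were chosen by chromosome alone: every line of the deposited TAD and interaction lists that lies on either chromosome, in all 10 libraries. They comprise 3279 of 41342 TADs and 862 of 17029 interactions. Chromosome 11 holds 2282 of these TADs and 693 of the interactions, and chromosome 19 holds 997 TADs and 169 interactions. They are set beside 3830 TADs and 1395 interactions on chromosomes 3 and 18. The study made exo-Hi-C libraries from mouse embryonic stem cells of the line ES-E14TG2a, with 2 libraries for each of 5 genotypes. Exo-Hi-C is Hi-C, a genome-wide measurement of contacts between DNA segments by proximity ligation, with an exonuclease step that removes linear DNA. Libraries may differ in that step, since LRC and LIC are named as exonuclease combinations without an assignment to libraries, and its part in the spread between libraries was not tested. Enhancer E1 was knocked out in E1-KO cells, E2 in E2-KO cells, E3 in E3-KO cells, and both E1 and E3 in E1&E3-dKO cells, while WT cells are wild type. All cells shared the parental line and were grown on gelatin without feeder cells, with LIF and inhibitors of GSK3b and MEK. The labels used here give neither the genomic position of the enhancers nor the number of clones, so the deletions themselves were not checked. Contact lists carry no expression marker, so the stem cell identity was not checked either.

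TADs are stretches of a chromosome within which DNA contacts itself more often than it contacts neighbouring stretches. In mammals their boundaries commonly carry the insulator protein CTCF and cohesin, the ring complex that extrudes chromatin loops, and boundaries are often found near active and housekeeping genes. Enhancers, which raise transcription from a distance, mostly contact promoters within their own TAD.

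The gene content of the chromosomes matched their description as gene-dense. Protein-coding genes of the RefSeq table, counted per chromosome and divided by the span of the deposited positions, numbered 13.6 per Mb on chromosome 11 and 12.2 per Mb on chromosome 19. Chromosomes 3 and 18 had 6.28 and 5.82 per Mb. Among the 19 autosomes, chromosomes 11 and 19 ranked 2 and 3 in gene density, after chromosome 7, and chromosomes 3 and 18 ranked 16 and 18. The spans were 118.72 Mb for chromosome 11, 57.88 Mb for 19, 156.54 Mb for 3 and 87.75 Mb for 18. The table follows another genome build than the lists, so only chromosome totals were used and no gene was assigned to a region.

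The libraries differed in size. They listed between 2715 TADs (E1-KO replicate 1) and 7962 TADs (E2-KO replicate 1), and between 466 interactions (WT replicate 2) and 6014 interactions (E1&E3-dKO replicate 2). Read totals are not part of the lists, and the depth of each library is therefore unknown. The titles of 4 libraries begin with w326 (both E2-KO libraries, E3-KO replicate 2 and WT replicate 1). Nothing in the labels says that the replicates came from separate cultures, and each p-value below is a statement about the spread of these samples, which may be technical.

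TADs were packed more densely on chromosomes 11 and 19 than on chromosomes 3 and 18. Chromosomes 11 and 19 together carried 1.86 ± 0.582 TADs per Mb, and chromosomes 3 and 18 carried 1.57 ± 0.645 (SD over 10 libraries each). E1-KO libraries had 1.39 and 1.63 TADs per Mb on chromosomes 11 and 19, against 0.966 and 1.35 on chromosomes 3 and 18. E2-KO libraries had 3.31 and 1.86, against 3.18 and 1.56. The gap between the chromosome sets was widest in E1-KO replicate 1, at 0.53 on the log2 scale, and narrowest in E2-KO replicate 1, at 0.06. E3-KO libraries had 1.59 and 2.02 TADs per Mb on chromosomes 11 and 19, against 1.23 and 1.79 on chromosomes 3 and 18. E1&E3-dKO libraries had 1.47 and 2.24, against 1.18 and 1.96. WT libraries had 1.35 and 1.70 on chromosomes 11 and 19, against 1.09 and 1.36 on chromosomes 3 and 18. Every library thus had more TADs per Mb on chromosomes 11 and 19, although the ranges over libraries overlapped. The mean log2 difference within libraries was 0.28 ± 0.13 (SD, n = 10), higher in 10 of 10 libraries. An exact sign-flip permutation over libraries gave p = 0.00195, the smallest it can give, and p = 0.0114 after Benjamini-Hochberg adjustment over the 35 tests of this family. The test concerns these fixed chromosomes across libraries, not gene-dense chromosomes as a class. Against all other autosomes the mean log2 difference was likewise 0.28, so it is not particular to the gene-poor pair. The difference from chromosomes 3 and 18 was 0.20 in the 4 libraries titled w326 and 0.33 in the other 6, higher in each library of both sets.

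**Figure D1:**
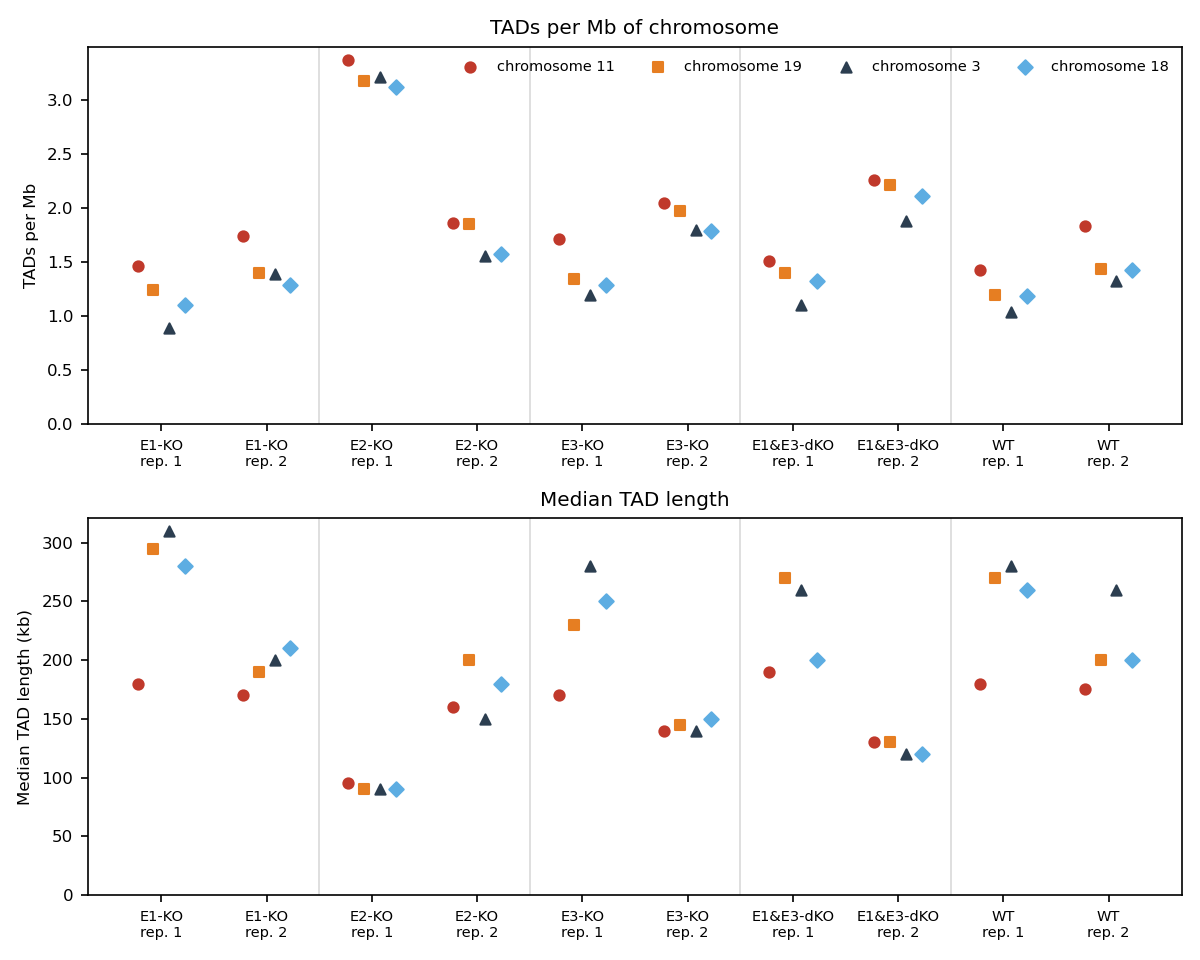
TADs per Mb of chromosome (top) and median TAD length in kb (bottom) for each of the 10 libraries, grouped by genotype, with a symbol for each of chromosomes 11, 19, 3 and 18. The symbol for chromosome 11 is the highest of the 4 in TADs per Mb in every library, and E2-KO replicate 1 stands above 3 TADs per Mb on all 4 chromosomes.

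The gap in TAD density was smaller in the libraries that listed more TADs. Across the 10 libraries the log2 difference between the chromosome sets correlated with the log2 number of TADs, with Pearson r = -0.90 (permutation p = 0.0004, adjusted p = 0.0011) and Spearman rho = -0.90 (permutation p = 0.0009, adjusted p = 0.0017). Adjustment was over 6 p-values from 3 relations. Without E2-KO replicate 1 and E1&E3-dKO replicate 2, the libraries farthest from the median number, r was -0.83. Among the 6 libraries not titled w326, r was -0.93, and the 4 titled w326 were too few for a value. The length difference followed the number of TADs the other way, with r = 0.77 (permutation p = 0.0057, adjusted p = 0.0085) and rho = 0.94 (permutation p = 0.0002, adjusted p = 0.0011). Without those same libraries r was 0.85, and among the 6 libraries not titled w326 it was 0.90. TADs of the compared chromosomes are part of the number on the other axis. Whether the number of TADs listed sets the size of the gap was not tested.

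The excess was larger on chromosome 11 than on chromosome 19. Chromosome 11 carried 1.92 ± 0.571 TADs per Mb, against 1.72 ± 0.613 on chromosome 19, and was higher in 10 of 10 libraries (mean log2 difference 0.18, exact sign-flip permutation p = 0.00195, adjusted p = 0.0114). With the same number of best-scored TADs from every library, this difference was 0.04, higher in 7 of 10 libraries, and did not pass (exact sign-flip permutation p = 0.594, unadjusted). Among the 19 autosomes, chromosome 11 ranked first in TAD density in 9 of 10 libraries and second in the remaining one. Chromosome 19 ranked between 2 and 7. Taken alone against chromosomes 3 and 18, chromosome 11 had a log2 difference of 0.33 and chromosome 19 one of 0.15. The lowest chromosome in the mean was chromosome 8, at 1.38 TADs per Mb.

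TADs on the pair of gene-dense chromosomes were shorter in most libraries, but the difference did not pass adjustment. The median TAD length averaged 168 ± 36.8 kb on chromosomes 11 and 19, against 203 ± 69.9 kb on chromosomes 3 and 18 (SD over 10 libraries). Medians were shorter on chromosomes 11 and 19 in 7 libraries, equal in both E2-KO libraries and longer in E1&E3-dKO replicate 2. The mean log2 difference was -0.22 ± 0.25 (exact sign-flip permutation p = 0.0234, adjusted p = 0.0820). The shorter median belonged to chromosome 11, whose TADs averaged 159 ± 29.1 kb, the lowest of the 19 autosomes. Chromosome 19 averaged 202 ± 66.5 kb, and taken alone its log2 difference from chromosomes 3 and 18 was 0.01, with the sign turned. The difference of chromosome 11 from 19 was -0.29 on the log2 scale, shorter in 8 and longer in 1 of 10 libraries (exact sign-flip permutation p = 0.0117, adjusted p = 0.0513).

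Chromosomes 11 and 19 differed in their long TADs. TADs of 1 Mb and longer made up 1.67% ± 0.872 of the TADs of chromosome 11 and 6.94% ± 4.00 of those of chromosome 19 (SD over 10 libraries). The share was lower on chromosome 11 in 10 of 10 libraries (difference -5.26 percentage points, exact sign-flip permutation p = 0.00195, adjusted p = 0.0114). In all, 34 of 2282 TADs on chromosome 11 and 58 of 997 on chromosome 19 were that long, beside 85 of 2408 on chromosome 3 and 80 of 1422 on chromosome 18. On chromosome 19, 31 of the 58 lay between 10 and 20 Mb. The share of short TADs did not pass the test: those of 90 kb and shorter made up 21.4% ± 12.1 on chromosome 11 and 20.3% ± 14.9 on chromosome 19 (exact sign-flip permutation p = 0.400, adjusted p = 0.609).

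The share of a chromosome covered by TADs set chromosome 19 apart from chromosome 11. TADs covered 42.2% ± 2.56 of chromosome 11 and 49.7% ± 4.89 of chromosome 19 (SD over 10 libraries), lower on chromosome 11 in 9 of 10 libraries. The mean difference was -7.52 percentage points (exact sign-flip permutation p = 0.00781, adjusted p = 0.0391). In E2-KO replicate 1 the order was turned, with 44.9% of chromosome 11 and 40.5% of chromosome 19. With TADs of score 2 and higher only, the mean difference was 0.18 points, with the sign turned (exact sign-flip permutation p = 0.813, unadjusted). Chromosome 19 had the highest mean coverage of the 19 autosomes and ranked first in 4 libraries. Together, chromosomes 11 and 19 were covered to 44.7% ± 2.23, against 42.3% ± 3.38 for chromosomes 3 and 18, higher in 7 of 10 libraries. That difference of 2.36 points did not pass adjustment (exact sign-flip permutation p = 0.0332, adjusted p = 0.103). The authors' TAD score, which is never under 1.5 in these lists, had a median averaging 1.72 ± 0.100 on chromosomes 11 and 19 and 1.72 ± 0.124 on chromosomes 3 and 18. Its mean difference of 0.006 was smaller than its SD over libraries, 0.029 (exact sign-flip permutation p = 0.551, adjusted p = 0.741).

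Across the 19 autosomes, chromosomes with more genes per Mb had shorter TADs in these lists. The mean of median length correlated with gene density at Pearson r = -0.68 and Spearman rho = -0.65 across 19 autosomes, and at r = -0.72 across the 15 autosomes without 3, 11, 18 and 19. TADs per Mb correlated with gene density at r = 0.52 and rho = 0.41, and at r = 0.30 across those 15. These are descriptions across chromosomes that share the same 10 libraries and the same caller. Chromosome 7 had the highest gene density, 13.6 per Mb, and did not share the position of chromosome 11: its 1.49 ± 0.477 TADs per Mb ranked 15, although its median length of 169.5 ± 52.1 kb ranked 17 from the longest. Chromosome 12, with the lowest gene density, had the longest median, 238 ± 97.3 kb.

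**Figure D2:**
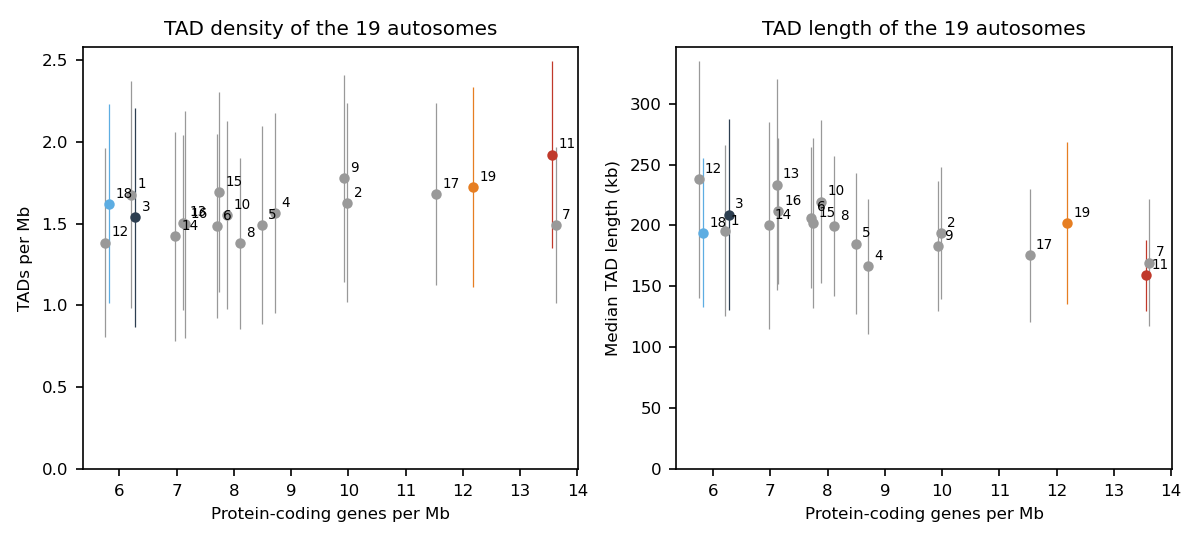
TADs per Mb (left) and median TAD length in kb (right) against protein-coding genes per Mb for the 19 autosomes, numbered, each point the mean of 10 libraries and each bar its SD. Chromosome 11 has the highest TAD density and the shortest median length, while chromosome 7, at nearly the same gene density, has 1.49 TADs per Mb.

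Boundaries on chromosomes 11 and 19 together recurred between libraries more often than those on chromosomes 3 and 18 together, in the deposited lists as they stand. A boundary was called recurrent when at least 5 of the other 9 libraries had a boundary within 25 kb. The recurrent share averaged 60.6% ± 17.3 on chromosomes 11 and 19, against 51.6% ± 19.1 on chromosomes 3 and 18 (SD over 10 libraries). Taken singly, chromosome 11 averaged 63.2%, chromosome 19 54.9%, chromosome 3 49.5% and chromosome 18 55.1%. Chromosome 19 thus did not exceed chromosome 18 in the mean. The lowest library on chromosomes 11 and 19 was E2-KO replicate 1, at 22.7% against 15.0% on chromosomes 3 and 18. The highest was WT replicate 1, at 78.3% against 71.3%. The mean difference was 9.04 ± 4.17 percentage points, higher in 10 of 10 libraries (exact sign-flip permutation p = 0.00195, adjusted p = 0.0114). It was 9.95 points in the 4 libraries titled w326 and 8.42 in the other 6.

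This direction held under some measures of recurrence and turned under others. It was 6.05 points with the same number of best-scored TADs from every library, 6.21 in the same 10 kb bin only and 7.40 within 50 kb. Asking for all 9 other libraries gave 5.65 points. With TADs of score 2 and higher only, the difference was -7.84 points (exact sign-flip permutation p = 0.00195, unadjusted). More of the length of chromosomes 11 and 19 also lay near such boundaries: between 10.9% and 11.2% of all bin edges were within reach of boundaries of 5 or more other libraries, against 7.61% to 7.94% on chromosomes 3 and 18. When each library's recurrent share was divided by that share of bin edges, the log2 difference was -0.23 (exact sign-flip permutation p = 0.00781, unadjusted). That divisor itself rises where recurrent boundaries are dense, while the recurrent share has an upper limit. The ratio therefore cannot decide which set recurs more. The higher recurrence is a statement about the lists as deposited, since it turned at score 2.

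Merged over the 10 libraries, chromosome 11 had 1252 distinct boundaries, chromosome 19 had 607, chromosome 3 had 1730 and chromosome 18 had 929. All 10 libraries held 88 of those on chromosome 11, 25 on chromosome 19, 47 on chromosome 3 and 44 on chromosome 18. Per Mb, these were 0.741 on chromosome 11, 0.432 on chromosome 19, 0.300 on chromosome 3 and 0.501 on chromosome 18. Chromosome 11 ranked first among the 19 autosomes in this density, chromosome 19 ranked 9, and all autosomes together had 0.421 per Mb. At the other end, a lone library held 540 boundaries on chromosome 11 and 266 on chromosome 19, which is 43.1% and 43.8% of the distinct ones. On chromosomes 3 and 18 these shares were 49.2% and 49.0%. Within a library, recurrence was higher on chromosome 11, at 63.2% ± 16.7, than on chromosome 19, at 54.9% ± 18.8, in 10 of 10 libraries (exact sign-flip permutation p = 0.00195, adjusted p = 0.0114). Divided by the share of bin edges, the order was turned, at 5.30 ± 1.39 on chromosome 11, the lowest of the 19 autosomes, and 5.91 ± 1.99 on chromosome 19. By that measure chromosome 11 was lower in 7 of 10 libraries (log2 difference -0.11, exact sign-flip permutation p = 0.131, unadjusted). Its divisor likewise rises where recurrent boundaries are dense, so the ratio does not decide the order.

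**Figure D3:**
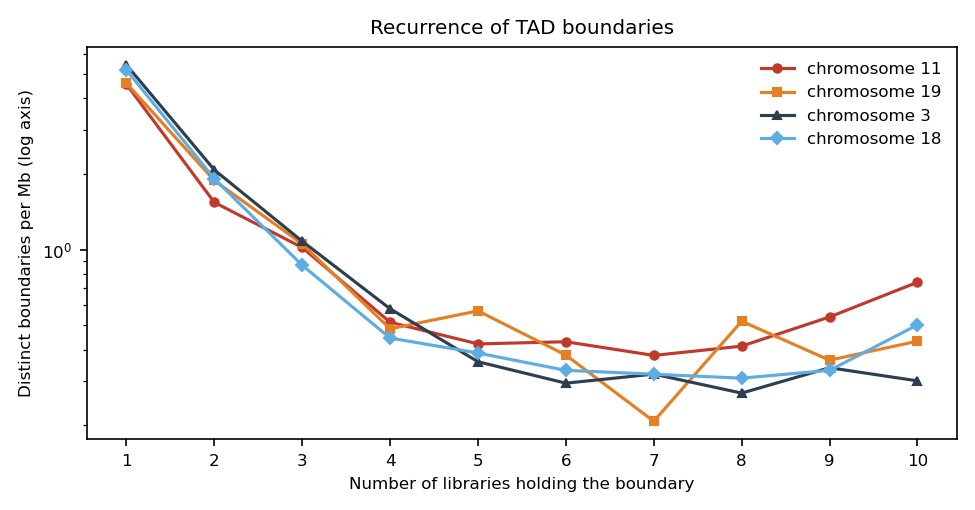
Distinct TAD boundaries per Mb (log axis) by the number of libraries, from 1 to 10, that hold them, for chromosomes 11, 19, 3 and 18. Chromosome 11 has the most boundaries held by all 10 libraries, 0.741 per Mb, and chromosome 3 the fewest of the 4, 0.300 per Mb.

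Whole TADs were matched by overlap and boundaries by position, so their counts are not set against each other. With a reciprocal overlap of at least 80%, 9 or 10 libraries held 51 of 969 distinct TADs on chromosome 11 and 15 of 481 on chromosome 19. On chromosomes 3 and 18 these were 43 of 1294 and 21 of 705. Per Mb, they were 0.430 on chromosome 11, 0.259 on 19, 0.275 on 3 and 0.239 on 18. The recurrent TADs of chromosome 11 were shorter than those of the other chromosomes, with a median of 180.0 kb against 350.0 kb on chromosome 19, 340.0 kb on chromosome 3 and 260.0 kb on chromosome 18. This contrast was not tested. TADs held by a lone library had a median length of 90 kb on each of the 4 chromosomes.

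The best recurrent TAD of chromosome 11 was chr11:11700001-11880000 (mm9), 180.0 kb long and held by all 10 libraries. E1-KO libraries scored it 2.89 and 2.82, E2-KO libraries 3.69 and 2.94, E3-KO libraries 2.68 and 2.64, E1&E3-dKO libraries 2.79 and 3.27, and WT libraries 2.84 and 3.10. The genotypes overlapped, and the highest score came from E2-KO replicate 1. Next was chr11:48590001-48680000, 90 kb long, with a mean score of 2.66 ± 0.435 (SD, n = 10). It scored highest in E1&E3-dKO replicate 2, at 3.66, and lowest in WT replicate 1, at 2.1. The other recurrent TADs named on chromosome 11, chr11:102150001-102300000 and chr11:86710001-86830000, averaged 2.22 ± 0.227 and 2.14 ± 0.278. The 3 top boundaries of chromosome 11, at 11.70, 11.88 and 48.59 Mb, are ends of the first of these TADs and of the next one.

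Of the 4 recurrent TADs named on chromosome 19, 3 were longer than any of the 4 of chromosome 11. All 4 scored lower, but the rule picked by score from lists of unequal size. All 10 libraries held 19 TADs on chromosome 11 and 5 on chromosome 19. Over TADs held by 9 or 10 libraries, the median score was 1.87 on chromosome 11 and 1.86 on chromosome 19. The first, chr19:44640001-44980000, is 340.0 kb long and averaged 1.94 ± 0.0915 over all 10 libraries. The others were chr19:27510001-27780000 at 1.91 ± 0.156, chr19:46830001-46940000 at 1.89 ± 0.219 and chr19:45280001-45630000 at 1.81 ± 0.111. Of these 4 TADs, 3 lay between 44 and 47 Mb. The top boundaries of the chromosome lay elsewhere, at 5.78, 5.87 and 53.46 Mb, with mean scores of 2.28 ± 0.420 for the pair near 5.8 Mb and 2.08 ± 0.257 for the last. For comparison, the best recurrent TAD averaged 2.18 ± 0.178 on chromosome 3 (chr3:132970001-133310000) and 2.19 ± 0.213 on chromosome 18 (chr18:62830001-63150000).

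The highest-scored TADs of single lists did not recur, while the longest were matched in some libraries. The highest-scored TAD of chromosome 11, chr11:121760001-121830000 at 8.14, and that of chromosome 19, chr19:40060001-40130000 at 4.01, were both 70.0 kb long and were listed only in E2-KO replicate 1. The former ends at 121.83 Mb, the last deposited position of chromosome 11. The longest TADs of chromosome 11 were 2000.0 kb long and came from E1-KO replicate 2 (chr11:9180001-11180000) and E1&E3-dKO replicate 1 (chr11:9170001-11170000). A TAD overlapping each of them by 80% was listed in 4 libraries. The longest of chromosome 19, chr19:13980001-15930000 in E1-KO replicate 1, also had such a match in 4 libraries.

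TAD density was uneven along both chromosomes. In windows of 10 Mb, chromosome 11 had its most TADs between 100 and 110 Mb, at 2.70 ± 0.435 per Mb (SD, n = 10), where 19 boundaries were held by all 10 libraries. Its fewest were in the first window, at 1.20 ± 0.329 per Mb, where the median length averaged 358 ± 130 kb. The lowest library of the window from 100 to 110 Mb, at 2.30 per Mb, exceeded the highest of the first window, at 2.03. On chromosome 19 the lowest windows were level, at 1.48 ± 0.442 per Mb in the first, which spans 6.7 Mb, and 1.48 ± 0.533 between 10 and 20 Mb. The highest was 2.04 ± 0.659 between 40 and 50 Mb, and the ranges of these windows overlapped. Windows were picked as highest and lowest after their values were seen, so no test is given.

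**Figure D4:**
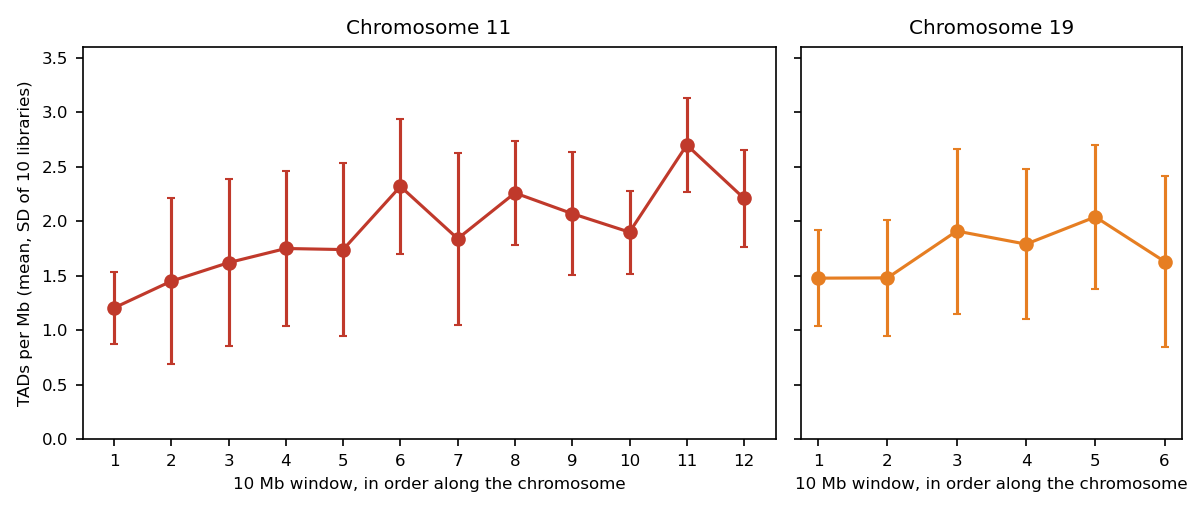
TADs per Mb in consecutive 10 Mb windows along chromosome 11 (left) and chromosome 19 (right), as the mean of 10 libraries with its SD. Window 11 of chromosome 11 is the highest at 2.70 TADs per Mb, and window 1 the lowest at 1.20.

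No genotype was shown to change the contrast between the chromosome sets. The log2 difference in TAD density averaged 0.40 ± 0.18 for E1-KO libraries, 0.15 ± 0.14 for E2-KO, 0.27 ± 0.14 for E3-KO, 0.25 ± 0.09 for E1&E3-dKO and 0.31 ± 0.02 for WT (SD, n = 2 each). Libraries of a genotype were no closer to each other than libraries paired otherwise (exact permutation over 945 pairings, one-sided p = 0.531, adjusted p = 0.741). The 8 knockout libraries differed from the 2 WT libraries by -0.04 in this log2 difference (exact permutation over 45 choices, two-sided p = 0.622, adjusted p = 0.759). For median length, the log2 difference was 0.00 in both E2-KO libraries and -0.39 ± 0.06 in WT, with p = 0.381 between genotypes and p = 0.33 for knockouts against WT (exact permutation, adjusted p = 0.609 and 0.583). For the covered share, knockouts exceeded WT by 4.31 percentage points in the difference between the chromosome sets (exact permutation p = 0.0444, adjusted p = 0.112), which did not pass adjustment. Neither the scores nor the recurrence of boundaries passed in either comparison. A lone knockout against WT, 2 libraries against 2, cannot give an exact p below 0.33.

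Lost and gained boundaries on chromosomes 11 and 19 were mostly near or below the share found over all autosomes. A boundary counted as lost in a knockout if both WT libraries had it and both knockout libraries lacked it, and as gained if both knockout libraries had it and both WT libraries lacked it. In E1-KO, 24 of the 320 boundaries held by both WT libraries were lost, or 7.5%, where 10.2% were lost over all autosomes. Gained boundaries were 35 of 325 in E1-KO, or 10.8%, where the share over all autosomes was 9.14%. In E2-KO, 27 of 320 were lost (8.44%, with 10.4% over all autosomes) and 92 of 344 were gained (26.7%, with 31.9% over all autosomes). The many gains of E2-KO accompany the longest TAD list, that of its replicate 1. With the same number of best-scored TADs from every library, E2-KO had 10 gained and 71 lost boundaries on chromosomes 11 and 19. The shares over all autosomes were not computed for that setting, so this change cannot be assigned to these chromosomes. In E3-KO, 11 of 320 were lost (3.44%, with 7.27% over all autosomes) and 37 of 348 were gained (10.6%, with 11.7%). In E1&E3-dKO, 26 of 320 were lost (8.13%, with 9.03%) and 28 of 330 were gained (8.48%, with 14.2%). On chromosomes 3 and 18 the lost shares ran from 9.84% in E1&E3-dKO to 13.1% in E1-KO, each above that of chromosomes 11 and 19 in the same genotype. Gained shares there were 5.59% in E1-KO, below that of chromosomes 11 and 19, 36.3% in E2-KO and 13.2% in E1&E3-dKO, both above it, and 10.95% in E3-KO, close to it. All 4 comparisons share the WT libraries, and no test is given. Leaving out a library asks for fewer to agree and gave more boundaries in every case: 55 to 154 for E1-KO, 57 to 743 for E2-KO, 32 to 253 for E3-KO and 57 to 320 for E1&E3-dKO, lost and gained counts together. For these counts, too, no share over all autosomes was computed.

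Apart from a single gain in E1-KO, each boundary named by its score was also held by at least 1 library of another knockout. The highest-scored gain of E1-KO, at 8.78 Mb on chromosome 11, scored 2.56 and 2.43 in its libraries and was also the highest-scored gain of E1&E3-dKO, at 2.67 and 2.80. It was absent from both WT libraries, and in either case 4 of 6 other knockout libraries held it. Beside it, a boundary at 8.87 Mb was lost in E1&E3-dKO, although 4 of 6 other knockout libraries held it. The gain of E1-KO at 40.27 Mb on chromosome 19, scored 2.07 and 2.03, was held by 0 of the 6 other knockout libraries. The losses of E1-KO lay at 87.78 and 34.64 Mb on chromosome 11, held by 3 and 4 of the other 6. In E2-KO the losses lay at 55.35 Mb on chromosome 11 and 8.63 Mb on chromosome 19. Its gains at 28.01 and 58.40 Mb on chromosome 11 scored 3.17 and 2.98 in replicate 1 but 1.66 and 1.69 in replicate 2. In E3-KO the losses lay at 45.75 and 78.83 Mb and the gains at 94.72 and 94.80 Mb, all on chromosome 11, and these gains share their scores of 1.63 and 2.12, so they are not independent. The remaining boundaries of E1&E3-dKO were a loss at 8.80 Mb on chromosome 19, scored 2.23 and 2.29 in WT, and a gain at 88.02 Mb on chromosome 11, which 5 of 6 other knockout libraries held.

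The difference in interactions per Mb between the chromosome sets passed adjustment in no distance class. The lists give pairs of 10 kb bins at an adjusted p of at most 0.01, and they were divided by distance. Under 2 Mb, chromosomes 11 and 19 had 0.117 ± 0.167 interactions per Mb, against 0.0737 ± 0.0539 on chromosomes 3 and 18 (SD over 10 libraries). The mean within-library log2 difference was -0.11 ± 1.55, opposite in sign to the difference of the means, and 5 libraries lay on each side (exact sign-flip permutation p = 0.842, adjusted p = 0.892). The sets of titles had opposite signs, with -1.16 in the 4 libraries titled w326 and 0.60 in the other 6. A pseudocount of 0.5 interactions was added to each count before division by the span and taking logs. At low counts it pulls the difference between these sets toward the log2 ratio of their spans, which is above 0. E1-KO replicate 1 supplied 98 of the 207 interactions under 2 Mb on chromosomes 11 and 19, and WT replicate 2 listed 0.

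Longer interactions were listed less often per Mb on chromosomes 11 and 19, without passing adjustment. From 2 to 20 Mb there were 0.129 ± 0.263 per Mb on chromosomes 11 and 19 and 0.143 ± 0.253 on chromosomes 3 and 18. The mean log2 difference was -0.44 ± 0.43, lower in 8 of 10 libraries (exact sign-flip permutation p = 0.0137, adjusted p = 0.0532). It was -1.12 against all other autosomes (exact sign-flip permutation p = 0.00391, unadjusted) and -0.11 against chromosome 18 alone. At 20 Mb and more the rates were 0.242 ± 0.339 on chromosomes 11 and 19 and 0.354 ± 0.471 on chromosomes 3 and 18, with a log2 difference of -0.37 ± 0.49 (exact sign-flip permutation p = 0.0449, adjusted p = 0.112). A short chromosome has fewer pairs of bins that far apart. Per possible pair of bins the log2 difference at 20 Mb and more was 0.21, with the sign turned (exact sign-flip permutation p = 0.223, unadjusted). Likewise chromosome 11 had 0.316 ± 0.429 such interactions per Mb and chromosome 19 had 0.0916 ± 0.163, higher on chromosome 11 in 10 of 10 libraries (log2 difference 1.92, exact sign-flip permutation p = 0.00195, adjusted p = 0.0114). Per 1000000 possible pairs of bins the rate was 0.770 ± 1.05 on chromosome 11 and 0.739 ± 1.32 on chromosome 19 (exact sign-flip permutation p = 0.629, adjusted p = 0.759). E1&E3-dKO replicate 2 supplied 67.4% of the interactions from 2 to 20 Mb and 47.4% of those of 20 Mb and more on chromosomes 11 and 19.

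**Figure D5:**
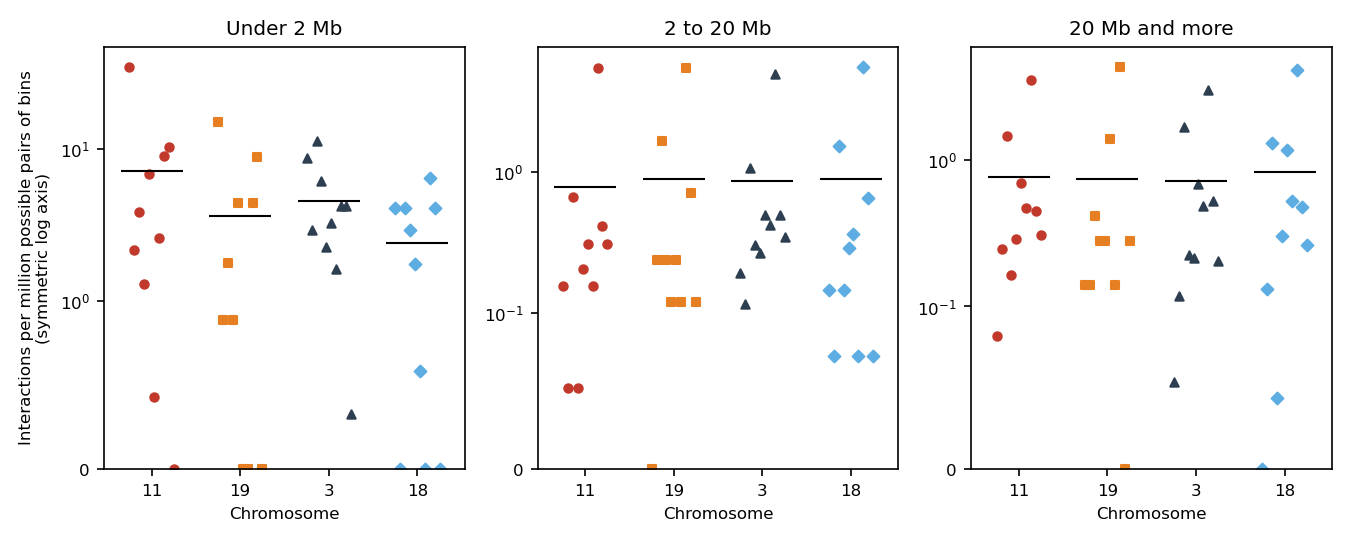
Interactions per 1000000 possible pairs of 10 kb bins (symmetric log axis, linear near 0) under 2 Mb, from 2 to 20 Mb, and at 20 Mb and more, for each of 10 libraries on chromosomes 11, 19, 3 and 18, with the mean as a line. At 20 Mb and more the means of chromosomes 11 and 19 lie at 0.770 and 0.739, and a few libraries lie far above the rest in each panel.

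Few interactions recurred on chromosomes 11 and 19, as on chromosomes 3 and 18. Of 643 distinct interactions on chromosome 11, 619 were listed in a lone library (96.3%), and of 152 on chromosome 19, 145 were (95.4%). On chromosomes 3 and 18 these shares were 96.6% and 98.3%. No interaction on chromosome 11 was listed in 5 or more libraries. There were 2 on chromosome 19, 4 on chromosome 3 and 0 on chromosome 18. A library counted as listing an interaction if it had a pair within 1 bin at both ends. The reads given are those of that library's own pair. The most recurrent interaction on chromosome 19 joined bins centred at 27.945 and 31.485 Mb, 3.54 Mb apart, in 6 libraries. Reads behind it numbered 4 for E1-KO replicate 2, 5 and 9 for the E2-KO libraries, 5 for E3-KO replicate 1, 4 for E1&E3-dKO replicate 1 and 5 for WT replicate 1. These counts are low and similar, and every genotype listed it at least once.

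The other interactions named by the rule, 2 on chromosome 19 and 3 on chromosome 11, joined bins 20 to 160 kb apart. On chromosome 19, bins at or within 1 bin of 5.805 and 5.835 Mb interacted in 5 libraries. Reads numbered 47 for E1-KO replicate 1, 16 for E2-KO replicate 2, 22 for E3-KO replicate 1, 14 for E1&E3-dKO replicate 2 and 24 for WT replicate 1. The third interaction of chromosome 19, between 5.795 and 5.855 Mb, rests on the same calls in 4 of these libraries. Both lie between the recurrent boundaries at 5.78 and 5.87 Mb. On chromosome 11, bins at 48.605 and 48.665 Mb interacted in 4 libraries, inside the recurrent TAD that starts at 48.59 Mb, with 26 and 17 reads in E1-KO, 21 in E3-KO replicate 1 and 10 in E1&E3-dKO replicate 2. Bins at 11.715 and 11.875 Mb interacted in 3 libraries, close to both ends of the top TAD of that chromosome, with 17 reads in E1-KO replicate 1, 14 in E3-KO replicate 1 and 15 in WT replicate 1. The remaining one joined 98.855 and 98.875 Mb in 4 libraries, with 42 and 16 reads in E1-KO, 21 in E1&E3-dKO replicate 1 and 36 in WT replicate 1.

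Interactions under 2 Mb were set against the TADs of the same library. The share that would match by position and distance alone was not computed, so the shares below are descriptive. On chromosomes 11 and 19, 96 of 207 had both ends within 25 kb of the ends of a TAD, or 46.4% (Wilson 95% interval 39.7 to 53.2%). On chromosomes 3 and 18, 62 of 180 did, or 34.4% (27.9 to 41.6%). These intervals overlap and cover counting error only. Of the 96, E1-KO replicate 1 supplied 53, and without it the counts were 43 of 109 on chromosomes 11 and 19 and 44 of 146 on chromosomes 3 and 18. Inside a TAD lay 139 of the 207, or 67.1%, on chromosomes 11 and 19, and 98 of 180, or 54.4%, on chromosomes 3 and 18.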

How the data were processed

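Exo-Hi-C was measured in 10 libraries. Per the submitters' processing notes, the tools include HiC-Pro 2.10.0 and HOMER (version not stated) and the build is mm9; their roles, and the tool behind the interaction lists, are not given in the sources used here. Each library has a deposited list of TADs and one of interactions, with no pooling of replicates. Deposited interaction lists give a count of reads per pair of 10 kb bins, not scaled. They also give the authors' p-value and adjusted p-value, at most 0.01, for each pair, and the deposited bias factor of each bin, a ratio. The deposited TAD lists give the authors' score per TAD, never under 1.5, with TADs from 60.0 kb to 2 Mb. The list of WT replicate 2 repeats every pair with its ends exchanged (932 lines, 466 distinct pairs); repeats were dropped.

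Rates were divided by the span between the first and last deposited position of a chromosome. Boundaries were matched within 25 kb, interactions within 1 bin, and TADs at 80% reciprocal overlap. Chromosome sets were compared within libraries by an exact sign-flip permutation (two-sided), genotypes by exact permutations, and the p-values of 35 tests were adjusted by Benjamini-Hochberg, with a threshold of 0.05. The scripts (python 3.11.15, numpy 2.4.6, pandas 2.3.3, scipy 1.17.1) were tested on simulated data. Genes were counted from a RefSeq table of GRCm38.p6.

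The chromosomes, the measures and the named regions were chosen with earlier results of these data known. Named regions followed a rule. Per chromosome 11 and 19 they are the 4 TADs, 3 boundaries and 3 interactions found in most libraries, with ties by score or p, and the longest and the highest-scored TAD. Per knockout they are the 2 lost and 2 gained boundaries of highest mean score, and on chromosomes 3 and 18 the top TAD. Windows, chromosomes 7, 8 and 12 and the comparisons of chromosome 11 with 19 were added after values were seen. No genome of the build was used, so no sequence or gene is given for a region. Alternatives were stricter scores and p, equal list sizes, other tolerances, other chromosomes, possible pairs of bins, title prefix, a replicate block and leaving out libraries.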

Additional observations from a re-analysis of the deposited data

Results flagged for a closer look

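The values below are differences between genotypes in the contrast of chromosomes 11 and 19 against 3 and 18. Differences between a pair of genotypes stand here because both libraries of the first lay on the opposite side of 0 from both libraries of the second, and they were not tested. Every pair of the 5 genotypes was screened in each measure. How many would meet this rule without an effect of genotype was not computed. In the covered share, the E2-KO libraries lay at 4.46 and 6.17 percentage points, the E3-KO libraries at 1.01 and 3.86, the E1&E3-dKO libraries at 5.31 and 4.16, and the WT libraries at -0.43 and -1.76. Their means exceeded that of WT by 6.41 points in E2-KO, 3.53 in E3-KO and 5.83 in E1&E3-dKO. The E1-KO libraries lay on both sides, at 2.26 and -1.48. All knockouts together exceeded WT by 4.31 points, which passed unadjusted (exact permutation p = 0.0444) and not after adjustment (adjusted p = 0.112).

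For interactions under 2 Mb, both E2-KO libraries had fewer per Mb on chromosomes 11 and 19 and both E1&E3-dKO libraries had more, and the log2 difference of their means was -2.34. For interactions of 20 Mb and more, both E1-KO libraries had more per Mb on chromosomes 11 and 19, at 0.47 and 0.37 on the log2 scale, and all libraries of the other genotypes had fewer. The mean of E1-KO exceeded that of E2-KO by 1.17, of E3-KO by 0.84, of E1&E3-dKO by 1.01 and of WT by 0.93. Neither E1-KO library is titled w326 and both E2-KO libraries are, so that pair again cannot be told apart from the title. The split at 0 holds per Mb: per possible pair of bins both E1-KO libraries were still the highest, at 1.06 and 0.95, but both E3-KO libraries (0.32 and 0.02), E1&E3-dKO replicate 2 (0.17) and WT replicate 2 (0.51) also lay above 0. The E1-KO values rest on few interactions, 0.0283 and 0.0736 per Mb on chromosomes 11 and 19.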

How the results depend on the processing

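The higher TAD density of chromosomes 11 and 19 kept its direction under all alternatives run, from 0.15 (chromosome 19 alone) to 0.33 (chromosome 11 alone, and libraries not titled w326), and from 0.25 to 0.30 without any 1 library; 1 value per genotype cannot give an exact permutation p below 0.0625. Boundary recurrence turned to -7.84 points at score 2, and the cause was not tested. Against bin edges the log2 ratio was -0.23, with the limit of its divisor given above. Without any 1 library the recurrence difference ran from 8.44 to 11.4 points. TAD length was 0.00501 for chromosome 19 alone and -0.28 in libraries not titled w326, and -0.25 to -0.17 without any 1 library. The TAD score difference was -0.0002 against all other autosomes, -0.003 for chromosome 11 alone, 0.0197 for chromosome 19 alone, -0.00615 at score 2, and 0.00244 to 0.014 without any 1 library. Covered share was -0.19 points against chromosome 18 alone, -0.11 for chromosome 11 alone, 1.16 with equal numbers of TADs, 1.58 in libraries not titled w326, and 1.93 to 2.81 without any 1 library. Interactions under 2 Mb turned to 0.74 against chromosome 18 alone, 0.23 for chromosome 11 alone and 0.60 in libraries not titled w326, with -1.31 against all other autosomes, -1.16 in libraries titled w326, and -0.34 to 0.16 without any 1 library. From 2 to 20 Mb the values were -0.11 against chromosome 18 alone, -0.35 for chromosome 19 alone and -0.35 in libraries not titled w326, but -1.12 against all other autosomes, -1.01 with equal numbers and -0.92 at adjusted p 0.001. At 20 Mb and more they were 0.57 against chromosome 18 alone, 0.0211 for chromosome 11 alone, 0.0730 at adjusted p 0.001, 0.0485 with equal numbers, 0.21 per possible pair, -0.12 in libraries not titled w326, -0.30 without E2-KO replicate 1 and E1&E3-dKO replicate 2, an alternative chosen after seeing the data, and -0.47 to -0.31 without any 1 library. Chromosome 11 against 19, in alternatives chosen after seeing the data, gave a TAD density difference of 0.0383 with equal numbers and 0.70 at score 2, a covered share difference of 0.177 points at score 2, and a recurrence difference of -0.11 (log2) against bin edges and 15.9 points at score 2. Without any 1 library these ran from 0.16 to 0.20, -8.85 to -6.66 and 6.02 to 9.84. Knockouts against WT in TAD density turned to 0.0915 at score 2, and in interactions under 2 Mb ran from -1.37 to 0.97 without any 1 library. With boundaries matched in the same bin only, lost counts were 38 for E1-KO, 76 for E2-KO, 47 for E3-KO and 59 for E1&E3-dKO, and gained counts were 46 for E2-KO and 46 for E1&E3-dKO. With equal numbers of TADs, lost counts were 71 for E2-KO and 18 for E3-KO, and gained counts 10 for E2-KO, 16 for E3-KO and 13 for E1&E3-dKO. Without any 1 of the 4 libraries, lost counts ran from 58 to 154 for E1-KO, 57 to 113 for E2-KO, 32 to 129 for E3-KO and 57 to 121 for E1&E3-dKO, and gained counts from 55 to 139, 115 to 743, 66 to 253 and 57 to 320, as fewer libraries had to agree. The alternative lost and gained counts were made on chromosomes 11 and 19 only, without the share over all autosomes. The log2 difference in TAD density between replicates 1 and 2 was taken across 19 autosomes. It correlated between genotypes at r over 0.1 in 8 of 10 pairs, from 0.114 to 0.475, with -0.009 and -0.031 in the others. These values may hint at pairing but were not tested, and replicates also differ in their number of TADs. The labels give no shared batch, so the numbers were not taken to pair libraries. With the replicate number as a block the exact permutation p between genotypes was 0.558 for TAD density, 0.175 for length and 0.350 for interactions under 2 Mb, and for knockouts against WT 0.600, 0.280 and 0.840, none past the threshold. Total depth is unknown, and interactions of few reads limit every rate.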
